A study of Mus musculus with 3 samples.

Results

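Fibroblast growth factor 9, 3 of its receptors and the genes that report and restrain the signal inside the cell were followed across 3 genotypes of the fetal mouse testis. The 10 genes are the ligand Fgf9, the receptors Fgfr1, Fgfr2 and Fgfr3, the Sprouty inhibitors Spry1, Spry2 and Spry4, the transcription factors Etv4 and Etv5, and the phosphatase Dusp6. They were chosen by name, out of 16527 genes on the array, and every probe whose accession maps to one of them was read. This gave 19 probes, of which 18 were bright enough to test among 27865 probes tested in all. The probe not tested is the second of the 2 Spry4 probes, which was not well above background on any array.

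The RNA was taken at embryonic day 14.5 from whole male gonads of a mouse line labelled MCH. The arrays labelled Cyp26b1 knockout are of genotype Cyp26b1-/-/Stra8+/+, those labelled double knockout are Cyp26b1-/-/Stra8-/-, and those labelled wild type are Cyp26b1+/+/Stra8+/+. Each genotype had 2 arrays, which the design text calls biological duplicates, while the labels do not say if gonads were pooled. P-values here cover the spread between these arrays and no more. CYP26B1 clears retinoic acid from the fetal testis, and Stra8 is switched on by retinoic acid as germ cells begin meiosis.

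As background, FGF9 is made by the somatic cells of the XY gonad and supports Sertoli cell differentiation. In male fetal germ cells it is known to act against retinoic acid, holding back meiosis and supporting the pluripotency programme. FGF ligands bind FGF receptors together with heparan sulfate, and the receptors switch on the RAS, RAF, MEK and ERK kinases. ERK signalling then raises transcription of Etv4 and Etv5, and of the Sprouty genes and Dusp6, whose products damp the same cascade.

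The 6 arrays were compared as log2 signals relative to the 75th percentile of their own array, so a level of 0 means a probe as bright as that percentile. The 75th percentiles were 997.0 and 1135.6 in Cyp26b1 knockout arrays, 1246.4 and 1440.6 in double knockout arrays, and 1299.6 and 1535.5 in wild-type arrays, in arbitrary intensity units. From 25485 to 28221 probes per array were well above background, and the number of arrays limits the precision. Each genotype was hybridised on a slide of its own, and the Cyp26b1 knockout slide was also scanned on a different day from the other 2 slides. Genotype and slide therefore cannot be told apart. The single Cyp26b1 probe had levels of 4.23 and 3.78 in Cyp26b1 knockout arrays, 4.06 and 3.87 in double knockout arrays, and 3.99 and 3.79 in wild-type arrays. The single Stra8 probe had levels of 7.15 and 6.99 in Cyp26b1 knockout arrays, 5.93 and 6.09 in double knockout arrays, and 3.69 and 2.37 in wild-type arrays. Arrays labelled double knockout thus read above wild type for Stra8, against the label. Whether these probes lie in the deleted parts of the genes is not given, so neither probe checks the labels, and every direction below is between arrays so labelled. Marker sums, as linear signals relative to the 75th percentile, were 85.3 to 90.9 in Cyp26b1 knockout, 74.9 to 79.3 in double knockout and 79.5 to 80.6 in wild-type arrays for 6 germ cell genes. For 6 Sertoli cell genes they were 31.9 to 35.5 in Cyp26b1 knockout, 33.5 to 37.4 in double knockout and 26.7 to 30.2 in wild-type arrays. For 4 measured fetal Leydig cell genes they were 57.4 to 76.7 in Cyp26b1 knockout, 80.6 to 95.8 in double knockout and 93.8 to 109 in wild-type arrays. By the calling rule given below, 23.8% of all genes tested were higher and 30.3% lower in Cyp26b1 knockout against wild type. In that comparison 3 germ cell genes were called higher and 2 lower, 3 Sertoli cell genes higher and 2 lower, and 0 Leydig cell genes higher and 3 lower. Of the germ cell genes, Tex101, Dazl and Kit rose by 0.99, 0.72 and 1.07, and Ddx4 and Mael fell by 0.46 and 1.07. The higher germ cell sum in Cyp26b1 knockout arrays rested on Tex101, the brightest of the 6 there. Of 6 mesonephros and duct genes, 2 were higher (Pax2, and Upk3b by 0.97) and 0 lower, and both fell in double knockout against Cyp26b1 knockout. Pax2 was well above background only in Cyp26b1 knockout arrays and met the filter through them. Its rise is a bound of at least 1.78-fold, and its fall a bound of at least 1.51-fold. Sums of the 6 mesonephros and duct genes were 8.33 to 8.75 in Cyp26b1 knockout, 8.23 to 9.06 in double knockout and 7.15 to 7.66 in wild-type arrays. Most of each sum came from Wt1, which was not called in any comparison. The sums therefore follow Wt1 and say little of the other genes on the list or of how much mesonephros was present. Of 5 endothelial genes, 3 were higher, Pecam1 by 1.58, Tek by 0.67 and Nos3 by 0.87. The 2 lower were the brightest, Cdh5 by 0.69 and Kdr by 0.52. Sums of the 5 were 4.84 to 5.02 in Cyp26b1 knockout, 5.46 to 6.12 in double knockout and 5.57 to 6.05 in wild-type arrays. Of 5 interstitial genes 1 was higher and 3 lower, of 6 blood and macrophage genes 2 and 2, and of 4 tested ovarian somatic genes 2 and 1. The part of cell makeup in the results below was not tested.

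In Cyp26b1 knockout gonads against wild type, the ligand Fgf9 and the phosphatase Dusp6 gave no call, while all 3 receptors, Spry2, Etv4 and Etv5 rose and Spry4 fell. A gene was read by its brightest probe and called at a limma adjusted p under 0.05. By that rule 6 of the 10 genes rose, 1 fell and 3 were not called. In the same comparison 54.1% of all 13291 genes tested were called, 23.8% higher and 30.3% lower. The median log2 change was 0.66 over the 10 genes and -0.06 over all genes. Of the 18 tested probes, 16 were well above background on all 6 arrays, and the 2 others, dim probes of Fgfr2 and Fgfr3, met the filter through the Cyp26b1 knockout arrays and are left out of the counts by probe. Of those 16, 12 rose and 1 fell, where 53.2% of all probes were called, 25.1% higher and 28.0% lower. Normexp background correction of the median signals ended all of these gene calls but that of Etv4, leaving 1 gene higher and 0 lower, whereas the same correction without the spots marked as outliers left 5 higher and 1 lower. The brightest Etv5 probe has no value in the latter.

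**Figure D1:**
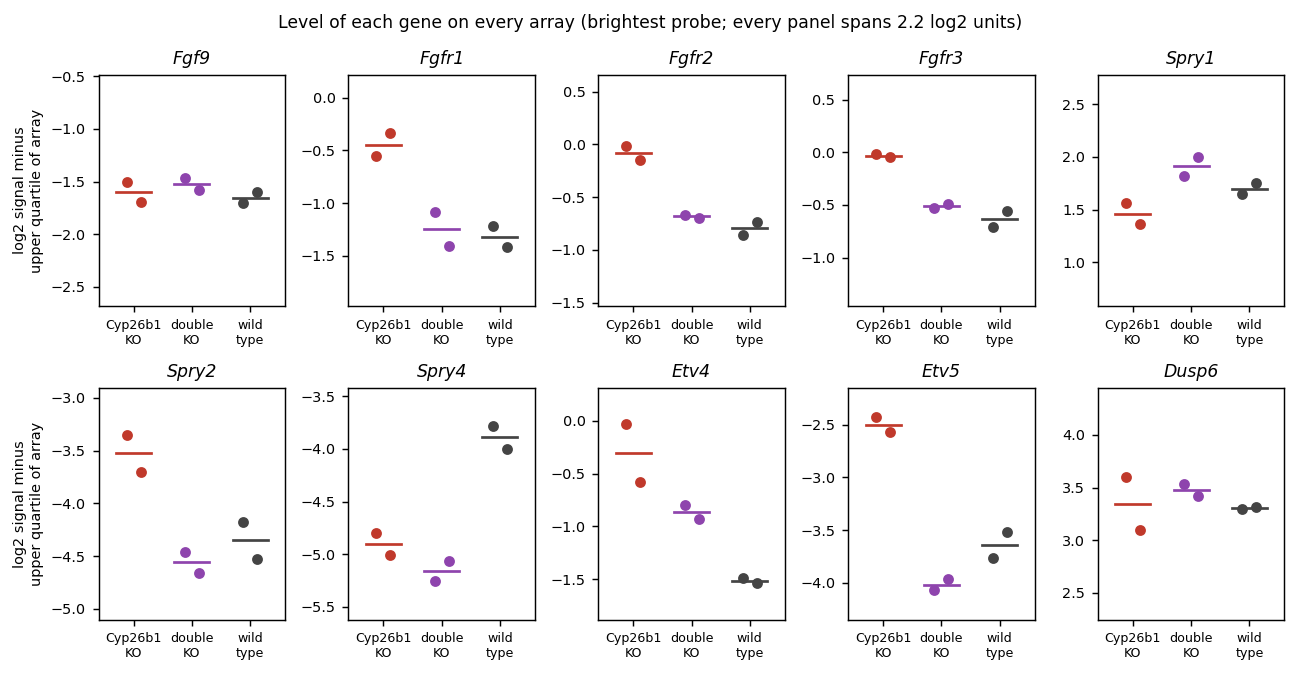
Log2 level (signal over the array's own 75th percentile) for the brightest probe of each of the 10 genes, 1 point per array, with the 2 arrays of each genotype and their mean. The Cyp26b1 knockout points of Fgfr1, Fgfr2, Fgfr3, Spry2, Etv4 and Etv5 lie above all wild-type points, those of Spry4 lie below them, and those of Fgf9 and Dusp6 overlap them.

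The promoters of genes that rose together, and of Spry1 for contrast, are shown because the array data end at the level of transcripts. Each sequence holds the 250 bases before a transcription start in RefSeq's table for GRCm38.p6, 5′ to 3′ on the gene's own strand. Fgfr2 is at chr7:130266809-130267058 on the minus strand, Fgfr3 at chr5:33721474-33721723 on the plus strand, and Etv5 at chr16:22439571-22439820 on the minus strand. Spry2 is at chr14:105896820-105897069 on the minus strand and Spry1 at chr3:37639697-37639946 on the plus strand. Capitals mark the GC box, GGGCGG on either strand.
Fgfr2: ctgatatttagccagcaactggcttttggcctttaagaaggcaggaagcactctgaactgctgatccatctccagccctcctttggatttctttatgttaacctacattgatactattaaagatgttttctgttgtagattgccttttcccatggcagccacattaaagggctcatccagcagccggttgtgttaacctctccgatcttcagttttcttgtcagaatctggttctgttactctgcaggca
Fgfr3: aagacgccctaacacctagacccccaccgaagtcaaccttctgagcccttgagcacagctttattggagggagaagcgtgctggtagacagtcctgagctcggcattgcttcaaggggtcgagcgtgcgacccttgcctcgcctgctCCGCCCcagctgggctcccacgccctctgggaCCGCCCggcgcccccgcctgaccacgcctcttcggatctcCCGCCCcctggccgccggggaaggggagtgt
Etv5: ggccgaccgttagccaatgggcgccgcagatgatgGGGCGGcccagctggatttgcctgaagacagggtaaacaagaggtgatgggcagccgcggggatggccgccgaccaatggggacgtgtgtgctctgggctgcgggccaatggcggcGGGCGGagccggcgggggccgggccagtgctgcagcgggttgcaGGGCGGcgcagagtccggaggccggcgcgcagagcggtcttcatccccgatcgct
Spry2: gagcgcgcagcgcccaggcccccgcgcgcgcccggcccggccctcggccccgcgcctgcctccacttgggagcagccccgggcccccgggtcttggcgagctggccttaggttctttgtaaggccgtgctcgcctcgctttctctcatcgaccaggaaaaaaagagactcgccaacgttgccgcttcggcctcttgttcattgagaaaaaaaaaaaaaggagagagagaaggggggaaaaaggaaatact
Spry1: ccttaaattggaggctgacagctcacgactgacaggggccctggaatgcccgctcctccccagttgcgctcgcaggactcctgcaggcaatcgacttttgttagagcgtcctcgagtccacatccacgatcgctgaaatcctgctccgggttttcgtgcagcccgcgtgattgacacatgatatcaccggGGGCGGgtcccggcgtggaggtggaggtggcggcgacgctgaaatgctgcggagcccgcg

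Promoters of 7 of the 10 genes were searched. The table held none for Fgfr1 and Etv4, and Spry4 was left out of the search. The GC box, the usual site of SP1-type factors, was found 3 times in the Fgfr3 window, 3 times in the Etv5 window and 1 time in the Spry1 window shown, and not in those of Fgfr2 and Spry2. It was found in 32.74% of 32851 promoter windows of the same length. The other motifs searched, on both strands, were the ETS core CCGGAA, the retinoic acid receptor half-site AGGTCA with its direct repeats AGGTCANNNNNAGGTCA and AGGTCANNAGGTCA, and CNCCTCAG, a motif named for STRA8. None of these letters was found in the windows of the 7 genes. The ETS core occurred in 12.03% of all windows, the half-site in 14.02%, each direct repeat in 0.009132% and the STRA8 motif in 6.417%. GC content was 66.8% for Fgfr3, 71.2% for Etv5 and 62.4% for Spry2, against 44.0% for Fgfr2. The genes that rose together thus did not share a base composition here. A second start, not shown, had 2 GC boxes and 72.8% GC for Fgfr3, and 0 GC boxes and 62.0% GC for Etv5.

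The ligand itself was measured by 1 probe. Fgf9 had levels of -1.50 and -1.70 in Cyp26b1 knockout arrays, -1.47 and -1.58 in double knockout arrays, and -1.70 and -1.60 in wild-type arrays. The genotypes lay within a narrow band, and the Cyp26b1 knockout arrays overlapped both other genotypes. The log2 change was 0.05 ± 0.12 (SE, n = 2 arrays per genotype) in Cyp26b1 knockout against wild type, with a limma adjusted p of 0.741 and a 95% confidence interval of -0.23 to 0.34. It was 0.13 ± 0.12 in double knockout against wild type, with a limma adjusted p of 0.517 and an interval of -0.15 to 0.42. Double knockout against Cyp26b1 knockout gave 0.08 ± 0.12, with a limma adjusted p of 0.620 and an interval of -0.21 to 0.37. A change in Fgf9 of more than 0.42 in size is thus outside all 3 intervals. In a whole gonad, fewer cells of a type and less RNA per cell cannot be told apart, here or in the results that follow.

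Fgfr1 encodes the receptor found on many mesenchymal and progenitor cells. Its brightest probe had levels of -0.56 and -0.34 in Cyp26b1 knockout arrays, -1.08 and -1.41 in double knockout arrays, and -1.22 and -1.42 in wild-type arrays. Both Cyp26b1 knockout arrays lay above all 4 others, while double knockout and wild type overlapped. The change in Cyp26b1 knockout against wild type was 0.87 ± 0.15, a 1.83-fold rise with a limma adjusted p of 0.00235. The other 3 Fgfr1 probes rose by 0.97, 0.94 and 0.65, with limma adjusted p values of 0.000948, 0.00233 and 0.0128. The call of the last was lost without wild-type array 1 or wild-type array 2, where its change was 0.64 and 0.66.

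Fgfr2 encodes the receptor through which FGF9 acts on Sertoli cell precursors in the mouse. Its brightest probe had levels of -0.02 and -0.15 in Cyp26b1 knockout arrays, -0.67 and -0.70 in double knockout arrays, and -0.86 and -0.74 in wild-type arrays. The Cyp26b1 knockout arrays were again the 2 highest, and the double knockout arrays lay just above the wild-type ones. The rise in Cyp26b1 knockout against wild type was 0.72 ± 0.10, or 1.64-fold, with a limma adjusted p of 0.00108. A second probe rose by 0.89 (limma adjusted p = 0.00187). The third and dimmer probe was well above background on both Cyp26b1 knockout arrays, neither double knockout array and 1 wild-type array, and its change of 0.75 had a limma adjusted p of 0.112.

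Fgfr3 encodes a receptor best known as a brake on bone growth, and in human testes it marks early spermatogonia. Its brightest probe had levels of -0.02 and -0.04 in Cyp26b1 knockout arrays, -0.53 and -0.49 in double knockout arrays, and -0.71 and -0.56 in wild-type arrays. The pattern across genotypes was that of Fgfr2. The rise in Cyp26b1 knockout against wild type was 0.60 ± 0.10, or 1.52-fold, with a limma adjusted p of 0.00187. A second probe rose by 0.74 (limma adjusted p = 0.00173). The third was well above background only in the Cyp26b1 knockout arrays, so its rise is a bound of at least 1.41-fold over wild type (limma adjusted p = 0.0111). That call was lost without Cyp26b1 knockout array 2 or wild-type array 1.

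The 3 Sprouty genes, which encode inhibitors of signalling between receptor and RAF, did not move together. Spry2 had levels of -3.35 and -3.70 in Cyp26b1 knockout arrays, -4.46 and -4.66 in double knockout arrays, and -4.17 and -4.53 in wild-type arrays. Its Cyp26b1 knockout arrays lay above the rest, and double knockout and wild type overlapped. Spry2 rose by 0.83 ± 0.22 in Cyp26b1 knockout against wild type (1.77-fold, limma adjusted p = 0.0158). That call was lost without Cyp26b1 knockout array 1 (limma adjusted p = 0.0843) or wild-type array 2 (limma adjusted p = 0.104).

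Spry4 had levels of -4.80 and -5.01 in Cyp26b1 knockout arrays, -5.26 and -5.06 in double knockout arrays, and -3.79 and -4.0 in wild-type arrays. It was the only one of the 10 genes whose wild-type arrays stood above both knockout genotypes. Its fall in Cyp26b1 knockout against wild type was -1.01 ± 0.21, a 2.02-fold drop with a limma adjusted p of 0.00574. Spry1 had levels of 1.56 and 1.36 in Cyp26b1 knockout arrays, 1.82 and 2.0 in double knockout arrays, and 1.65 and 1.75 in wild-type arrays. Its Cyp26b1 knockout arrays were the lowest, without overlap. The change of -0.24 ± 0.11 against wild type did not pass the threshold (limma adjusted p = 0.101, interval -0.49 to 0.02).

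Etv4 and Etv5 encode ETS-family transcription factors that are induced by FGF signalling and carry it to further genes. In mouse testes after birth, Etv5 is also required for the upkeep of spermatogonial stem cells. Etv4 had levels of -0.03 and -0.58 in Cyp26b1 knockout arrays, -0.80 and -0.93 in double knockout arrays, and -1.49 and -1.54 in wild-type arrays. The 3 genotypes formed 3 separate steps, although the 2 Cyp26b1 knockout arrays differed from each other by more than those of the other genotypes did. Etv4 rose by 1.21 ± 0.18 in Cyp26b1 knockout against wild type (2.31-fold, limma adjusted p = 0.00116), and by 0.93 without Cyp26b1 knockout array 1.

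Etv5 had levels of -2.43 and -2.57 in Cyp26b1 knockout arrays, -4.07 and -3.97 in double knockout arrays, and -3.77 and -3.52 in wild-type arrays. The Cyp26b1 knockout arrays stood well above the rest, and the double knockout arrays lay lowest. The rise in Cyp26b1 knockout against wild type was 1.15 ± 0.17, or 2.21-fold, with a limma adjusted p of 0.00114. The second Etv5 probe rose by 0.87 (limma adjusted p = 0.00576).

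Dusp6 encodes the phosphatase that inactivates ERK in the cytoplasm and is a common readout of FGF signalling. It had levels of 3.60 and 3.09 in Cyp26b1 knockout arrays, 3.53 and 3.42 in double knockout arrays, and 3.30 and 3.32 in wild-type arrays. The 2 Cyp26b1 knockout arrays lay on either side of the wild-type pair. The change of 0.04 ± 0.15 in Cyp26b1 knockout against wild type was not called (limma adjusted p = 0.850, interval -0.32 to 0.40). It depends on which Cyp26b1 knockout array is kept, at -0.22 without array 1 and 0.29 without array 2 (limma adjusted p = 0.0411 for the second).

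**Figure D2:**
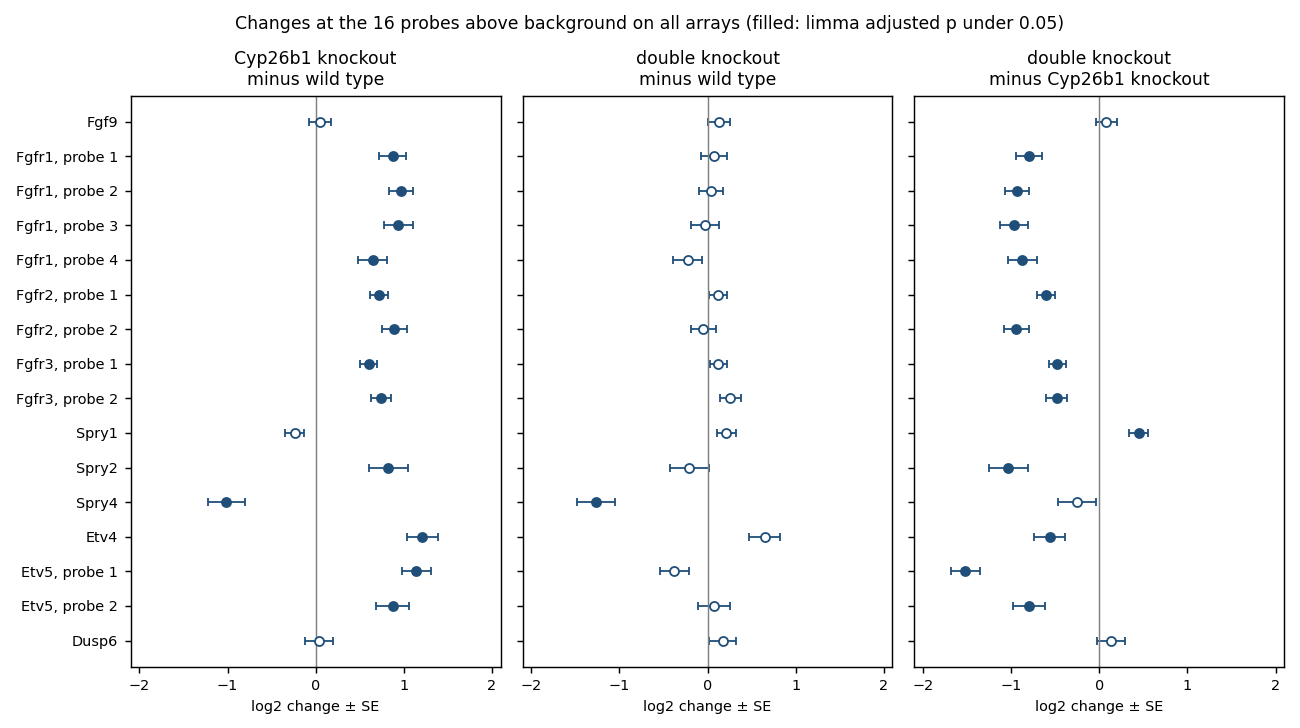
Log2 change, with bars of 1 SE from the fit, for each of the 16 probes of the 10 genes well above background on all arrays, in Cyp26b1 knockout against wild type, double knockout against wild type, and double knockout against Cyp26b1 knockout. Filled points passed the threshold, and the 8 receptor probes shown lie at 0.60 to 0.97 in the first comparison, between -0.22 and 0.26 in the second and at -0.97 to -0.48 in the third.

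In gonads labelled double knockout against wild type, 1 of the 10 genes was called, and it was Spry4, which fell. None rose, and 9 were not called. In that comparison 13.1% of all genes were called, 6.74% higher and 6.33% lower. The median log2 change was 0.12 over the 10 genes and 0.03 over all genes. Of the same 16 probes 1 fell and none rose by limma's test, where 11.5% of all probes were called, 5.02% higher and 6.46% lower. Of all called probes 12.3% were higher when scaled as in the authors' value table, against 43.7% as reported. At an unadjusted limma p under 0.05 Etv4 was higher as well, a looser limit whose share over all genes was not counted.

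Spry4 fell by 1.27 ± 0.21 on the log2 scale in double knockout against wild type, a 2.40-fold drop with a limma adjusted p of 0.0120. The call was lost with the first normexp correction, and also without wild-type array 1 (limma adjusted p = 0.0954) or wild-type array 2 (limma adjusted p = 0.0705). The receptors had changes of 0.07 ± 0.15 for Fgfr1, 0.11 ± 0.10 for Fgfr2 and 0.12 ± 0.10 for Fgfr3, with limma adjusted p values of 0.782, 0.499 and 0.448. Their 95% confidence intervals were -0.27 to 0.42, -0.12 to 0.35 and -0.11 to 0.35. The upper ends of these intervals lie below the corresponding changes in Cyp26b1 knockout against wild type, and the difference between the knockouts is tested below.

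Etv4 was nearest to the threshold among the genes not called, at 0.65 ± 0.18 in double knockout against wild type with a limma adjusted p of 0.0557. It was higher in both double knockout arrays than in both wild-type arrays. With only the 4 arrays that shared a scan day, a setting chosen after seeing the data, 1 of the 10 genes was called higher, and it was Etv4. Over all probes that setting called 1640 higher and 2142 lower, against 1398 and 1800 as reported. Etv5 had a change of -0.38 ± 0.17 (limma adjusted p = 0.180), on the other side of 0 from Etv4, although its second probe stood at 0.07. Spry1, Spry2 and Dusp6 had changes of 0.21, -0.21 and 0.17, with limma adjusted p values of 0.241, 0.575 and 0.505.

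The double knockout was then set against the Cyp26b1 knockout, a pair that by its labels differs in Stra8. This comparison shares the Cyp26b1 knockout arrays with the first, so a gene that was high there is apt to be low here, and the 2 counts are not separate evidence. Fgfr1, Fgfr2, Fgfr3, Spry2, Etv4 and Etv5 fell, Spry1 rose, and Fgf9, Spry4 and Dusp6 were not called. Thus 1 of 10 genes rose and 6 fell, where 47.5% of all genes were called, 29.2% higher and 18.3% lower. The median log2 change was -0.52 over the 10 genes and 0.11 over all genes. Of the same 16 probes 1 rose and 12 fell, where 45.8% of all probes were called, 23.5% higher and 22.3% lower. The first of those normexp corrections left 0 of the 10 genes called here. The one without marked spots, where the brightest Etv5 probe has no value, left 1 higher and 5 lower. Of all called probes 19.4% were higher when scaled as in the authors' value table, against 51.2% as reported.

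Etv5 showed the largest fall of the brightest probes, at -1.52 ± 0.17 or 2.87-fold lower in double knockout than in Cyp26b1 knockout (limma adjusted p = 0.000636). With the first normexp correction its change was -0.53 and was not called (limma adjusted p = 0.955). Spry2 fell by 1.03 ± 0.22 on the log2 scale, or 2.05-fold (limma adjusted p = 0.00778). Etv4 fell by 0.56 ± 0.18 (limma adjusted p = 0.034), a call lost in each of 5 fits that left out 1 array other than Cyp26b1 knockout array 2, with limma adjusted p values of 0.0555 to 0.127. Without Cyp26b1 knockout array 1 the fall was -0.29. The receptors fell by 0.80 ± 0.15 for Fgfr1, 0.60 ± 0.10 for Fgfr2 and 0.48 ± 0.10 for Fgfr3, with limma adjusted p values of 0.00451, 0.00309 and 0.0064. The 8 receptor probes well above background on all arrays were each called lower. For the second Fgfr3 probe the call was lost without Cyp26b1 knockout array 1 or double knockout array 1, with a change of -0.44 in each. The dim probes of Fgfr2 and Fgfr3 give bounds of at least 1.49-fold and at least 1.16-fold lower (limma adjusted p = 0.0332 and 0.0327), and met the filter through the arrays in which they were high. Both calls were lost in 4 of the 6 fits that left out 1 array, with limma adjusted p values of 0.0514 to 0.148 for Fgfr2 and 0.0504 to 0.133 for Fgfr3, and that of Fgfr2 also with quantile normalization (limma adjusted p = 0.0513).

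Spry1 was the only one of the 10 genes called higher in double knockout than in Cyp26b1 knockout, by 0.45 ± 0.11 or 1.36-fold (limma adjusted p = 0.0128). The call was lost without Cyp26b1 knockout array 2 (limma adjusted p = 0.0586), without double knockout array 2 (limma adjusted p = 0.0753), and with the scaling of the authors' value table, where the change was 0.14 (limma adjusted p = 0.301). Spry4 had a change of -0.25 ± 0.21 (limma adjusted p = 0.360, interval -0.75 to 0.24), and its double knockout arrays lay just below the Cyp26b1 knockout ones. Dusp6 had a change of 0.13 ± 0.15 (limma adjusted p = 0.513), which became 0.39 without Cyp26b1 knockout array 1 (limma adjusted p = 0.0208).

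Agreement between probes of one gene bears on how far a single probe can be read. Among genes with at least 2 called probes in Cyp26b1 knockout against wild type, 467 of 1844, or 25.3%, had probes called in opposite directions. For double knockout against Cyp26b1 knockout it was 484 of 1531, or 31.6%, and in double knockout against wild type 6 of 250, or 2.40%. Both comparisons with many opposite calls hold the Cyp26b1 knockout slide. Fgfr1, Fgfr2, Fgfr3 and Etv5, the 4 genes with at least 2 called probes, had no opposite calls. Fgf9, Spry1, Spry2, Etv4 and Dusp6 had 1 probe each and Spry4 had 1 tested probe, so the check could not be made for them.

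Signal level was examined beside the changes, because the dimmest probes shifted as a class. Over all 841 probes with a mean level below -6, the median change in Cyp26b1 knockout against wild type was 0.72, and in double knockout against Cyp26b1 knockout it was -0.87. Such probes entered the fit through a genotype in which they were well above background. The lowest level so marked was -6.46 and -6.24 in Cyp26b1 knockout arrays and -6.01 to -5.63 in the others. The part of this filter in these medians was not tested. From level -6 to 1 the median in the first comparison stayed between -0.05 and 0.03. Above level 1 it was -0.13 in Cyp26b1 knockout against wild type and 0.19 in double knockout against Cyp26b1 knockout. Of the 18 tested probes, the third Fgfr3 probe, at a mean level of -6.41, lies in the dim range. The other probes called higher in Cyp26b1 knockout lie where the median was near 0. Under the first normexp correction, however, each of these with a mean level below -3 turned its sign in that comparison. They were 2 Fgfr1 probes (-0.19 and -0.59), an Fgfr2 probe (-0.15), Spry2 (-0.51) and both Etv5 probes (-0.10 and -0.35). The brighter ones kept a rise. The part of signal level in these turns was not tested.

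**Figure D3:**
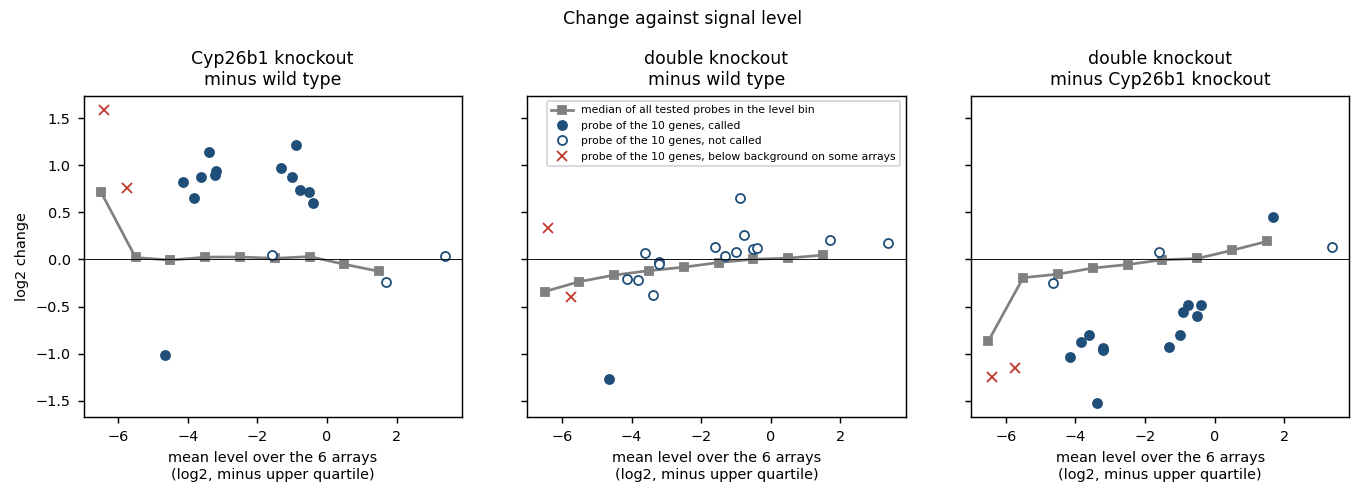
Median log2 change of all probes by mean log2 level, for the comparisons of the 3 genotypes, with the tested probes of the 10 genes as points, crosses for the 2 dim ones. Receptor and Etv probes lie above the line in Cyp26b1 knockout against wild type and below it in double knockout against Cyp26b1 knockout, and the line itself leaves 0 for the dimmest probes.

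Other genes of the pathway gave a mixed picture in Cyp26b1 knockout against wild type, where 23.8% of all genes tested were called higher and 30.3% lower. Of 10 tested genes for other FGF ligands, 0 rose and 4 fell, with a median log2 change of -0.46. Fgf8, a ligand of early mesoderm and limb, had levels of -2.32 and -2.63 in Cyp26b1 knockout arrays, -1.74 and -2.07 in double knockout arrays, and -1.05 and -1.19 in wild-type arrays. It fell by 1.36 ± 0.16 on the log2 scale in Cyp26b1 knockout (limma adjusted p = 0.00054) and by 0.79 in double knockout (limma adjusted p = 0.0253), both against wild type. Fgf21, an endocrine ligand, fell by 2.31 ± 0.22 and by 2.18 in the same comparisons (limma adjusted p = 0.00022 and 0.00212). The Fgf13 probes disagreed in sign, so no direction is given for it, although the count of 4 takes it as lower by its brightest probe.

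Of 7 other receptor and co-receptor genes, Fgfrl1 rose and Flrt3 fell. Fgfrl1, a receptor relative without a kinase domain, rose by 0.64 ± 0.09 (limma adjusted p = 0.00103) in Cyp26b1 knockout against wild type and fell by 0.80 in double knockout against Cyp26b1 knockout (limma adjusted p = 0.00072). Its change of -0.15 in double knockout against wild type was not called (limma adjusted p = 0.303). Flrt3, a membrane protein that binds FGF receptors, fell by 0.89 ± 0.10 in Cyp26b1 knockout against wild type (limma adjusted p = 0.00047).

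Among 18 adaptor and kinase genes of the cascade, 8 rose and 3 fell in Cyp26b1 knockout against wild type, beside 23.8% and 30.3% of all genes, with a median of 0.17. Gab1, a docking protein that links receptors to SHP2, rose by 1.12 ± 0.10 (limma adjusted p = 0.00020). Map2k1, which encodes the ERK kinase MEK1, rose by 1.0 ± 0.10 (limma adjusted p = 0.00027), and Frs3, a receptor adaptor, rose by 0.77 ± 0.13 (limma adjusted p = 0.00198). These 3 genes fell in double knockout against Cyp26b1 knockout, by 0.98, 0.71 and 0.72. Their changes in double knockout against wild type were 0.14, 0.29 and 0.05, with none called.

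Of 13 other feedback inhibitors of ERK, 2 rose and 2 fell in Cyp26b1 knockout against wild type, with a median of -0.03. Dusp9, an ERK phosphatase like Dusp6, rose by 1.36 ± 0.13 (limma adjusted p = 0.00021) and its second probe by 2.49, while Dusp6 was not called. Spred2, a Sprouty-related inhibitor, fell by 1.27 ± 0.20 (limma adjusted p = 0.00165). The Cbl probes were called in opposite directions, so no direction is given for it. The count of 2 that fell takes it as lower by its brightest probe.

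Read by its brightest probe, none of the other ERK-responsive transcription factors was called in the direction of Etv4 and Etv5. Other probes were read only for the genes named. Of 12 tested, 0 rose and 7 fell in Cyp26b1 knockout against wild type, beside 23.8% and 30.3% of all genes, with a median of -0.50. Egr1, an immediate early gene of growth factor signalling, had levels of 0.01 and -0.30 in Cyp26b1 knockout arrays, 0.74 and 0.83 in double knockout arrays, and 1.49 and 1.46 in wild-type arrays. Egr1 fell by 1.62 ± 0.12 on the log2 scale in Cyp26b1 knockout (limma adjusted p = 0.00010) and by 0.69 in double knockout (limma adjusted p = 0.0130), both against wild type. Egr2, from the same family, fell by 1.36 ± 0.19 in Cyp26b1 knockout (limma adjusted p = 0.00102). Myc, a proliferation factor, fell by 0.89 ± 0.11 (limma adjusted p = 0.00055), with 1 of its 2 other probes also called lower and the other at 0.20.

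Of 18 tested heparan sulfate genes, 0 rose and 8 fell in Cyp26b1 knockout against wild type, beside 23.8% and 30.3% of all genes, with a median of -0.13. Hs6st2, a heparan sulfate sulfotransferase, fell by 0.95 ± 0.15 (limma adjusted p = 0.00159), and its second probe fell by 0.61. Probes of Ndst1 and Sdc4 differed in sign, so no direction is given for them, although the count of 8 takes both as lower by their brightest probes. The counts higher and lower in double knockout against wild type were 0 and 2 for ligands, 0 and 1 for receptors, 1 and 0 for the cascade, 1 and 1 for inhibitors, 0 and 1 for transcription factors, and 0 and 2 for heparan sulfate genes, beside 6.74% and 6.33% of all genes. Set against Cyp26b1 knockout, the double knockout gave 2 and 1, 1 and 2, 4 and 5, 3 and 3, 6 and 1, and 8 and 0 for the same lists, beside 29.2% and 18.3% of all genes. These counts read each gene by its brightest probe, also where its probes disagree. They were not recomputed with the value table's scaling, under which only 19.4% of called probes were higher in double knockout against Cyp26b1 knockout.

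**Figure D4:**
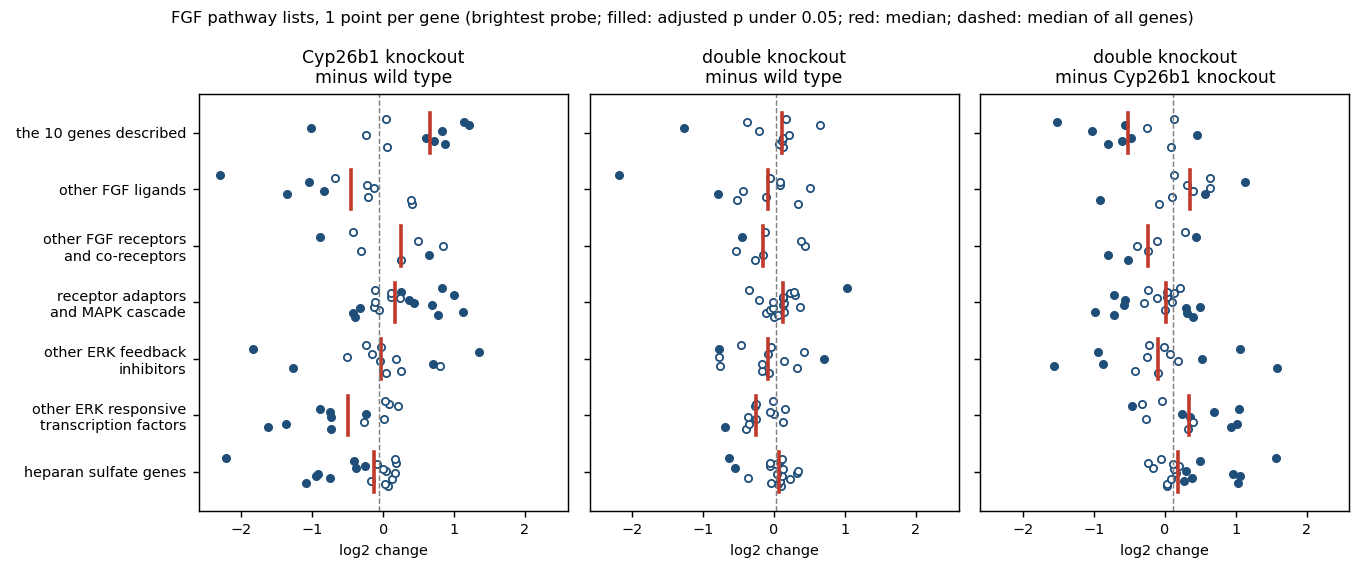
Log2 changes of the tested genes of each FGF pathway list, 1 point per gene by its brightest probe, in the comparisons of the 3 genotypes, with the list median. In Cyp26b1 knockout against wild type the 10 genes described here have a median of 0.66, the other ERK-responsive transcription factors -0.50 and all genes -0.06.

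Across the 6 arrays, the levels of the receptors varied together, with Pearson r of 0.896 to 0.991 between pairs of their brightest probes, while Fgf9 had r of -0.09 to 0.14 with them. Fgf9 and Dusp6, the genes with no call in any comparison, had an r of 0.891 with each other. The genes whose levels followed Fgf9 most closely were Mpnd, Pelp1 and Dhrs1, with r of 0.950, 0.946 and 0.944 among 13217 genes compared. For Dusp6 they were Sccpdh, Rfxank and Slc25a39, with r of 0.985, 0.965 and 0.958 among 12639 genes. These values describe 6 arrays that share 3 genotypes and 3 slides, and say nothing of shared control.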

How the data were processed

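Agilent one-colour mouse arrays measured RNA from 2 arrays for each of 3 genotypes. The authors deposited spot intensities per array, from Agilent's scanner software Feature Extraction (9.5 in the submitters' processing notes, 9.5.3.1 in the file headers). This processed signal had been background-subtracted by that software, per the file headers. Their deposited value table, 1 column per genotype, holds a linear ratio whose log2 differences between columns followed those of the processed signals with r of 0.999993 to 0.999998. The table's differences lay off by 0.10 for Cyp26b1 knockout against wild type, -0.20 for double knockout against wild type and -0.30 for double knockout against Cyp26b1 knockout. Its column medians were 1.12 for Cyp26b1 knockout, 0.959 for double knockout and 0.99979 for wild type, so its direction is settled while its scale and centring stay unknown.

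Control and outlier spots were left out (54 to 100 of 43379 spots per array), spots of a probe were averaged, and each array's 75th percentile was subtracted on the log2 scale. Of 41174 probes, 23366 matched 1 gene symbol through RefSeq accessions (GRCm38.p6), 0 matched several and 17808 matched none. Probe positions are in an older build (mm8, per the file headers) and are not used. A probe entered the fit if some genotype had it well above background on both of its arrays. One fit in limma 3.58.1 (R 4.3.3, lmFit and eBayes with trend) over 6 arrays had 3 residual and 4.46 prior degrees of freedom. P-values are two-sided and adjusted by Benjamini-Hochberg over all 27865 probes. An exact permutation test of 2 arrays against 2 cannot go below a p of 0.333. Bounds set the brighter mean against the higher of the lowest signal well above background and the dim probe's own. Within a genotype the 2 arrays had r of 0.994 to 0.996.

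All probes of the 10 genes are named, and of each other list the called genes with the smallest adjusted p in Cyp26b1 knockout against wild type. The genes, lists and rules were chosen with earlier results of these data known. The alternatives were other scalings, background corrections, filters, the replicate number as a block and each array left out. The alternative background correction used median signals. Arrays of the same number did not deviate together (r of 0.0974, 0.0914 and 0.187), so the numbers do not pair them. The fit was checked on simulated data.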

Additional observations from a re-analysis of the deposited data

How the results depend on the processing

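Over the scalings tried, the calls for the receptors, Spry2, Spry4, Etv4 and Etv5 in Cyp26b1 knockout against wild type held, with a highest limma adjusted p of 0.0228, for Spry2. Normexp background correction changed most. It left 1 gene higher (Etv4) and 0 lower in that comparison, 0 lower in double knockout against wild type, and 0 higher and 0 lower in double knockout against Cyp26b1 knockout. This correction took spots the scanner software had marked, and the cause of the change was not tested. With those spots left out, added after seeing the data, 5 genes were higher in Cyp26b1 knockout against wild type, since the brightest Etv5 probe has no value there. For double knockout against wild type, 1 gene (Etv4) was higher with that setting, with the replicate block and with the arrays of the shared scan day. The value table's scaling gave 2 lower in double knockout against wild type, adding Etv5, and 0 higher in double knockout against Cyp26b1 knockout.

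Leaving out 1 array at a time gave 5 to 7 genes higher in Cyp26b1 knockout against wild type. It gave 0 to 1 higher and 0 to 1 lower in double knockout against wild type, with 1 higher without either Cyp26b1 knockout array and 0 lower without either wild-type array. In double knockout against Cyp26b1 knockout it gave 0 to 2 higher and 5 to 6 lower. Over all probes, the 1398 higher and 1800 lower calls of double knockout against wild type became 802 and 5698 under the value table's scaling, 356 and 238 under normexp, 895 and 1363 without an eBayes trend, 872 and 1044 without a filter, and as few as 323 and 325 with 1 array left out. The 7008 and 7811 of Cyp26b1 knockout against wild type became 2351 and 2352 under normexp. The 6536 and 6218 of double knockout against Cyp26b1 knockout became 2576 and 10724 under the value table's scaling, 1953 and 1704 under normexp, and 11879 higher without a filter.

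Some changes turned their sign. Under normexp in Cyp26b1 knockout against wild type these were Fgf9 -0.23, 2 Fgfr1 probes -0.19 and -0.59, 2 Fgfr2 probes -0.15 and -0.91, an Fgfr3 probe -0.95, Spry2 -0.51 and the Etv5 probes -0.10 and -0.35. Under normexp, double knockout against wild type turned for Fgf9 -0.14, Fgfr1 -0.18 and -0.20, Fgfr3 -0.61 and Etv5 -0.48, and double knockout against Cyp26b1 knockout for Fgfr1 0.022, Fgfr2 0.21, Fgfr3 0.35 and Spry4 0.38. Under the value table's scaling in double knockout against wild type they were Fgf9 -0.067, Fgfr1 -0.13 and -0.16, Fgfr2 -0.085, Fgfr3 -0.078, Etv5 -0.13 and Dusp6 -0.029, and against Cyp26b1 knockout Fgf9 -0.22 and Dusp6 -0.17. Fgfr1 and Fgfr2 probes in double knockout against wild type became 0.10 and 0.081 with cyclic loess, 0.099 and 0.091 with quantile normalization, and 0.030 and 0.0066 with normexp without marked spots. Dusp6 in double knockout against Cyp26b1 knockout became -0.061 with cyclic loess and -0.022 with quantiles, and Fgf9 -0.064 with normexp without marked spots and -0.0049 with the percentile over probes above background on all arrays. With 1 array left out, Fgf9 ranged over -0.0451 to 0.15 and Dusp6 over -0.22 to 0.29 in Cyp26b1 knockout against wild type. The Fgfr1 probes in double knockout against wild type ranged over -0.0884 to 0.24, -0.11 to 0.19 and -0.17 to 0.12, the Fgfr2 probe over -0.81 to 0.0238 and the Fgfr3 probe over -0.14 to 0.80. Double knockout against Cyp26b1 knockout ranged over -0.0173 to 0.18 for Fgf9 and over -0.12 to 0.39 for Dusp6. None of the changes with a turned sign was called (lowest limma adjusted p 0.101).

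A fit with slide as a block was not run, since each slide held 1 genotype. Probes not above background in a genotype are known there only as a bound.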
